A study of Mus musculus with 2 samples.

Results

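Ryr2, Tshz2, Nav2, Plcl1, Adam12, Ptger2, Cst7 and Neurl3 are 8 genes of 31253 in the deposited tables. Summed over Treg cells, all of them had lower transcript levels in the library of mice with a floxed Kmt2d. They were chosen by name, on their difference between the same 2 libraries in effector Treg cells. Their levels in Treg cells are therefore given as a description, without a test. The single-cell RNA libraries came from sorted CD4+FoxP3+ cells of mouse spleen, prepared with the 10x Genomics 3' V3.1 chemistry. One library was from Foxp3YFP-Cre Kmt2d+/+ mice (here +/+) and the other from Foxp3YFP-Cre Kmt2dfl/fl mice (here fl/fl), each pooled from 3 mice. Mice of both groups carry YFP-Cre at Foxp3, so that the Foxp3 locus drives the recombinase. The labels give no age, sex or strain. With 1 library per genotype there was no replicate check, and all intervals cover counting error only.

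Treg cells restrain other immune cells and depend on the transcription factor Foxp3. Resting (central) Treg cells recirculate through lymphoid organs, whereas effector Treg cells have been activated and carry costimulatory receptors and suppressive molecules. Kmt2d encodes a methyltransferase that places histone H3 lysine 4 methylation, mainly the monomethyl mark at enhancers.

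Kmt2d itself, the targeted gene, reached 69.9 CPM (+/+) against 66.8 CPM (fl/fl) among Treg-like cells, where CPM are counts of unique molecular identifiers (UMIs) scaled by the total of the cells summed. This is a log2 ratio, fl/fl over +/+, of -0.07 (95% interval -0.16 to 0.03). The floxed part is not given in the sources used here, so 3' counts of Kmt2d do not check the labels. After filtering, 7677 +/+ and 8450 fl/fl single cells were kept, and 15 barcodes occurred in both libraries. Cells were gated on UMI counts of marker genes. The Treg gate (3 or more UMIs of Ikzf2 and Foxp3 together, and no CD8 UMI) held 3770 +/+ and 3648 fl/fl cells, with medians of 5613.5 and 6904.5 UMIs per cell. Within it Foxp3 was at 37.5 against 26.1 CPM and Ikzf2, a Treg transcription factor, at 2303 against 2204 CPM. Pairs of values below give +/+ first and fl/fl second. The remaining cells were mostly other T cells and B cells, although both samples had been sorted as Treg cells. Summed marker levels of other cells in the Treg gate were 26.7 against 10.2 CPM for 6 neutrophil, 16.8 and 9.19 for 6 B cell, 9.32 and 4.56 for 6 monocyte and macrophage, and 23.7 and 17.5 for 5 NK cell markers. None of these markers was at 0 in the gate. The 4 erythroid markers, none at 0, summed to 2.04 against 31.3 CPM there, and in fl/fl to 522.9 CPM in interferon-responding Treg-like cells and 538.7 CPM in conventional CD4 T cell-like cells. The 3 platelet markers were at 0 in the Treg gate of both libraries. These markers varied beside the results, and their part in the results was not tested.

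The genes differ in size and in what they encode. By the GENCODE M21 annotation of GRCm38, 5 of them are very long. Nav2 (chromosome 7, 48908716 to 49610090, plus strand) spans 701.4 kb and encodes a neuron navigator, a cytoskeleton-associated protein. Ryr2 (chromosome 13, 11553102 to 12106945, minus strand) spans 553.8 kb and encodes a ryanodine receptor, a calcium release channel of the endoplasmic reticulum. Tshz2 (chromosome 2, 169633013 to 170071816, plus strand) spans 438.8 kb and encodes a teashirt zinc finger transcription factor. Adam12 (chromosome 7, 133883199 to 134232146, minus strand) and Plcl1 (chromosome 1, 55405921 to 55754285, plus strand) span 348.9 and 348.4 kb. They encode a transmembrane metalloprotease and a phospholipase C-like protein without lipase activity. The median span of the 8200 genes measured in effector Treg-like cells was 27.2 kb, and these 5 lay between the 98.4th and 99.7th percentile. The other 3 genes are short. Neurl3 (chromosome 1, 36264597 to 36274679, minus strand) spans 10.1 kb and encodes a RING-type ubiquitin ligase of the neuralized family. Ptger2 (chromosome 14, 44988195 to 45003820, plus strand) spans 15.6 kb and encodes the EP2 receptor for prostaglandin E2, which raises cyclic AMP. Cst7 (chromosome 2, 150570415 to 150578944, plus strand) spans 8.53 kb and encodes cystatin F, an inhibitor of lysosomal cathepsins.

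RefSeq windows of 300 bases (250 before and 50 after the start, GRCm38.p6) matched 7 of the 8 genes, in 8 windows. The windows of 3 genes are printed because they contrast in their promoter letters: Ryr2 has a GC-rich start, Neurl3 a TATA box and Cst7 an AP-1 match. They lie at chr13:12106896-12107195 (minus strand), chr1:36273376-36273675 (minus strand) and chr2:150570165-150570464 (plus strand), and capitals mark motif matches.
Ryr2: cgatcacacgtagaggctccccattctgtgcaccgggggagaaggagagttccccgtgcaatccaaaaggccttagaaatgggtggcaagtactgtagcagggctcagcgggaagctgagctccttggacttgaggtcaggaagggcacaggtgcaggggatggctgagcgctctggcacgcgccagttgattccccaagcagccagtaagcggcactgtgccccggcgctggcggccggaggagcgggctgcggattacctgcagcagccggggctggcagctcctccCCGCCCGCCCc
Neurl3: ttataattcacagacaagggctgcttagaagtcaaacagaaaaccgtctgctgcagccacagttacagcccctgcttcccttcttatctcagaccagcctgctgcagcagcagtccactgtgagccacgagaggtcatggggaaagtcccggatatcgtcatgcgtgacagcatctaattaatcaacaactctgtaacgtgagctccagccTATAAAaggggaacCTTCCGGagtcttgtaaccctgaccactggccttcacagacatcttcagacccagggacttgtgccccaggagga
Cst7: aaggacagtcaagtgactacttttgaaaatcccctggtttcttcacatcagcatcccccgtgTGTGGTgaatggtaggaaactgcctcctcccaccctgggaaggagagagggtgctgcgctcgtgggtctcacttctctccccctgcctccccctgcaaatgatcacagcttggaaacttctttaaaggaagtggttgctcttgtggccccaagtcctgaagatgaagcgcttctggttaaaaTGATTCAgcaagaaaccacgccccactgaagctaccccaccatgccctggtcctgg
Both strands of every window were searched for 8 motifs. The SP/KLF motif was spelled GGGCGG, and the TATA box of core promoters TATAAA. The motif of ETS factors was CCGGAAG, and that of AP-1 was TGANTCA. RUNX factors were searched as TGTGGT, and the cyclic AMP response half-site as TGACGT. The forkhead motif was TGTTTAC, and the TCF/LEF motif CTTTGA. Ryr2 held 2 overlapping SP/KLF matches, starting 39 and 43 bases after the first transcribed base. Neurl3 held a TATA box 39 bases and an ETS match 25 bases before it, and Cst7 an AP-1 match 6 bases and a RUNX match 188 bases before it. Tshz2, Plcl1 and 1 of the 2 Nav2 windows held 1 SP/KLF match each, and the Ptger2 window and the other Nav2 window held none of the 8 motifs. No motif was common to all members. Of all 32851 windows, 35.7% held SP/KLF, 13.6% a TATA box, 8.86% ETS, 7.81% AP-1 and 16.8% RUNX. The forkhead, cyclic AMP response and TCF/LEF letters occurred in 3.65%, 7.51% and 16.0% of all windows and in none of these. CpG content also varied, from 2 CpG in the Tshz2 window and 3 in that of Ptger2 to 18 in Ryr2, 30 in Plcl1 and 42 in the second Nav2 window, against a median of 7 over all windows. A match in these letters is a description of the window, not a bound site.

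In +/+ spleen, 7 of the 8 genes were higher in effector than in resting Treg-like cells, and Neurl3 was nearly level. Treg-like cells were split by the share of effector markers (such as Icos, Tigit, Maf and Tnfrsf4) among their effector and resting marker UMIs (such as Ccr7 and Lef1), at 50%. Effector cells with a UMI of Klrg1, Il10 or Gzmb were set apart, as were cells with high interferon-response or cell cycle counts. The effector-to-resting fold in +/+ cells was 8.41 for Nav2, 7.73 for Tshz2, 5.89 for Cst7, 5.39 for Ryr2, 3.78 for Ptger2 and 2.53 for Plcl1, and for Adam12 the step was 2.04 on the log2 scale. For Neurl3 it was 1.18 (log2 0.24, 0.04 to 0.43). Nav2 rose once more, 2.18-fold, from effector cells to those with Klrg1, Il10 or Gzmb, and Adam12 1.49-fold. For the other 6 genes the interval of that step included 0 on the log2 scale, so these neighbouring levels were not separable by counting error. Interferon-responding cells lay between resting and effector cells for every gene except Neurl3, with Adam12 from only 10 UMIs. Neurl3 there was at 44.5 CPM, next to 45.2 CPM in resting cells. Treg-like cells held 84.7% of all Ryr2 UMIs of the +/+ library, but only 52.3% of those of Neurl3.

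**Figure D1:**
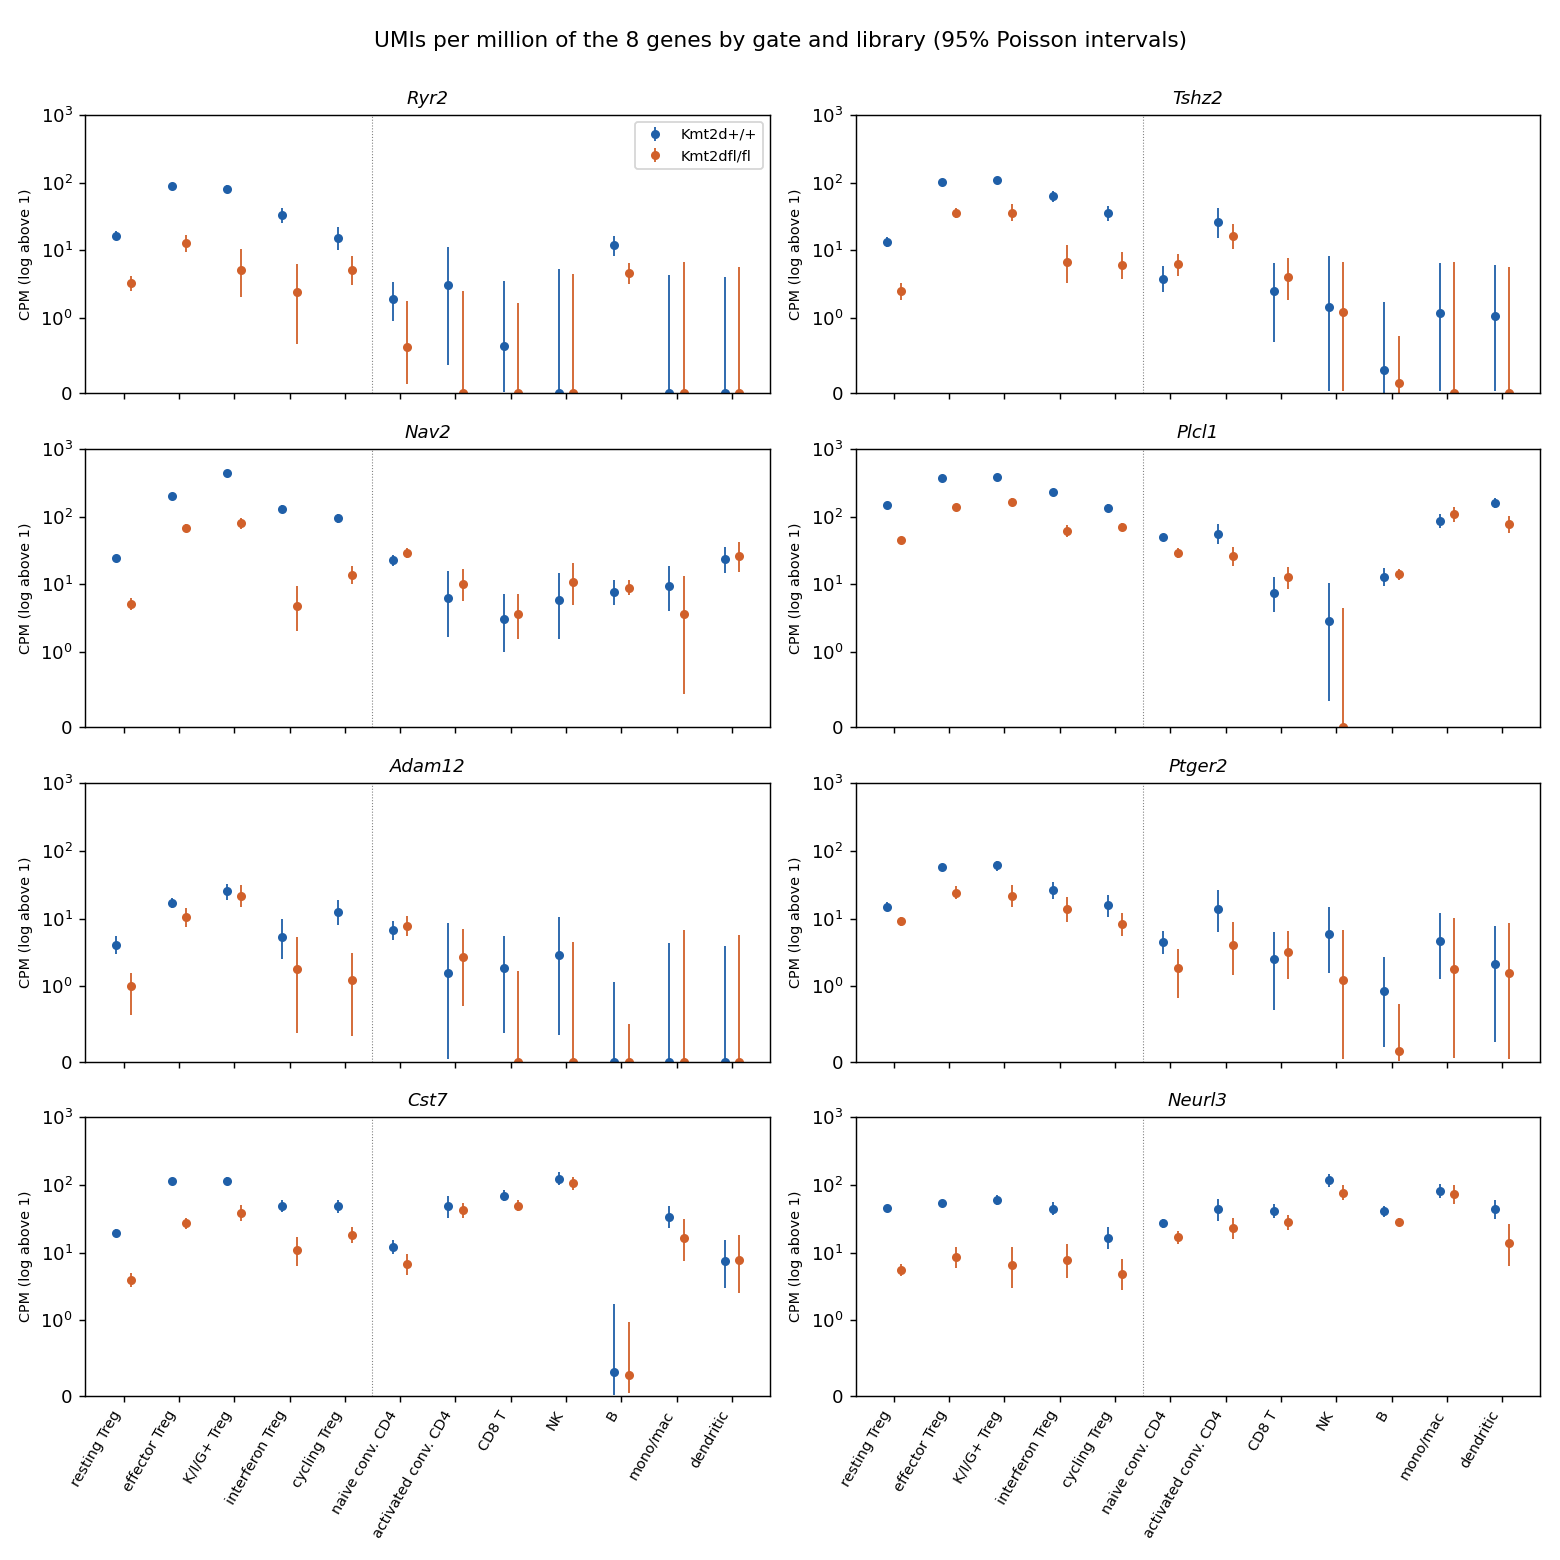
Level of each gene (CPM, linear below 1 and log above) in 12 gates, with +/+ in blue and fl/fl in orange. Points are the summed counts of 1 library and bars 95% Poisson intervals. K/I/G+ means effector cells with a UMI of Klrg1, Il10 or Gzmb, and the dotted line separates Treg from other gates. The orange point lies below the blue one for all 8 genes in each of the 5 Treg gates, and in resting and effector cells the bars overlap only for Adam12 in effector cells.

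All 8 genes were lower in the fl/fl Treg gate. Called lower means a CPM ratio of at least 1.5 with an interval that excludes 1, and a gene counts as measured from 10 CPM in at least 1 library. By that rule 8 of 8 genes were called lower, where 9.63% of 8062 measured genes were, and 0 were called higher, where 2.42% were. This contrast chose the genes, so nothing is read from the count. Their median log2 ratio was -2.60 and that of all measured genes -0.13. Because fl/fl Treg-like cells were 69.7% resting and 14.7% effector, against 42.8% and 36.8% in +/+, the pooled ratio mixes state makeup with level. With fl/fl state levels weighted by the +/+ makeup, the share of the pooled log2 ratio that remained ran from 49.0% for Adam12 to 94.7% for Neurl3. The values below are therefore given state by state.

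Ryr2, the calcium channel, had the lowest ratio of the 8 in the Treg gate. In resting Treg-like cells it was at 16.4 CPM (+/+) against 3.26 CPM (fl/fl), a log2 ratio of -2.33 (-2.77 to -1.90). In effector cells it was at 88.3 against 12.6 CPM (-2.81, -3.26 to -2.38), and in cells with Klrg1, Il10 or Gzmb at 80.3 against 5.04 CPM (-3.99, -5.33 to -2.92). The fl/fl library was below +/+ in each state, and the last value rests on 7 fl/fl UMIs in 3 cells. The effector value rests on 47 fl/fl UMIs in 16 cells, and 10 of those cells held 85.1% of them. Detection changed in parallel: 16.3% of +/+ but 2.99% of fl/fl effector cells held a Ryr2 UMI, and 11.0% and 2.63% after thinning each cell to 2500 UMIs.

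Neurl3, the ubiquitin ligase, was at 45.2 against 5.62 CPM in resting cells (-3.01, -3.33 to -2.70) and at 53.3 against 8.61 CPM in effector cells (-2.63, -3.20 to -2.11). In cells with Klrg1, Il10 or Gzmb it was at 60.8 against 6.48 CPM (-3.23, -4.39 to -2.26). The 3 intervals overlap, so the size of the difference was not separable between states. Of the 8 genes it ranked lowest in resting cells, as the 8th lowest ratio of all 7836 measured genes.

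Nav2, the navigator, and Tshz2, the zinc finger factor, are both genes of the effector end. Split at 50%, their ratios were closer to 0 in effector than in resting cells, but that of Nav2 was further from 0 in cells with Klrg1, Il10 or Gzmb. Nav2 was at 24.4 against 5.19 CPM in resting cells (-2.24, -2.59 to -1.89) and at 205.6 against 69.1 CPM in effector cells (-1.57, -1.77 to -1.38). In cells with Klrg1, Il10 or Gzmb it was at 448.4 against 80.0 CPM (-2.49, -2.78 to -2.20). Tshz2 was at 13.2 against 2.51 CPM in resting cells (-2.39, -2.90 to -1.91) and at 102.2 against 36.0 CPM in effector cells (-1.50, -1.78 to -1.24). Both remained detectable in fl/fl effector cells, Nav2 in 14.0% and Tshz2 in 8.77% of cells, against 29.7% and 20.4% in +/+.

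Cst7, the cathepsin inhibitor, was at 19.4 against 3.96 CPM in resting cells (-2.29, -2.69 to -1.90) and at 113.9 against 27.2 CPM in effector cells (-2.07, -2.38 to -1.77). A Cst7 UMI was present in 39.2% of effector cells of the +/+ and 13.4% of those of the fl/fl library. Plcl1, which binds inositol phosphates, was at 149.5 against 45.0 CPM in resting cells (-1.73, -1.85 to -1.61) and at 378.6 against 136.9 CPM in effector cells (-1.47, -1.61 to -1.33). With 3004 and 509 UMIs in effector cells its ratio has the narrowest interval of the 8. Neither gene was lost outright, and 30.4% of fl/fl effector cells still held a Plcl1 UMI against 59.5% in +/+.

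Ptger2, the prostaglandin receptor, differed least in resting cells, at 15.0 against 9.10 CPM (-0.73, -1.05 to -0.40). In effector cells it was at 56.8 against 24.2 CPM (-1.23, -1.57 to -0.90). An antisense gene on the opposite strand, Gm17173, overlaps Ptger2 and had 793 and 487 UMIs in the Treg gate. Whether the counting used strand is not given in the sources used here, so the split between these genes is uncertain. Adam12, the metalloprotease, was the weakest case. It was at 4.12 against 1.02 CPM in resting cells, below the 10 CPM floor, and at 16.9 against 10.5 CPM in effector cells (-0.69, -1.24 to -0.16). In cells with Klrg1, Il10 or Gzmb it was at 25.2 against 21.6 CPM (-0.22, -0.91 to 0.44), an interval that includes 0. Its 39 fl/fl effector UMIs came from 15 cells, and 10 of those cells held 87.2% of them.

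By the same rule 7 of the 7 measured members were called lower in resting cells (all genes 9.05%) and 8 of 8 in effector cells (all genes 9.17%), where 0 were called higher (all genes 3.92%). In cells with Klrg1, Il10 or Gzmb 7 of 8 were called (11.0%), in interferon-responding cells 7 of 7 measured (10.2%) and in cycling cells 8 of 8 (6.66%). Adam12 was the member not called or not measured. Some of these calls rest on few cells. In interferon-responding cells Ryr2 had 4 fl/fl UMIs in 3 cells and Nav2 8 fl/fl UMIs in 4 cells. In cycling cells Adam12 had 24 +/+ UMIs in 5 cells and 4 fl/fl UMIs in 1 cell. These gates share the contrast that chose the genes, and the counts are descriptions. The call for Adam12 in effector cells ended in 2 of 6 draws of the thinning (lowest -1.57, highest -0.05), with the effector cut at 70% (-0.44) and with 4 effector markers left out (-0.22). Where only cells with a Foxp3 UMI were taken, its value turned to 0.87 (-0.05 to 1.78).

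**Figure D2:**
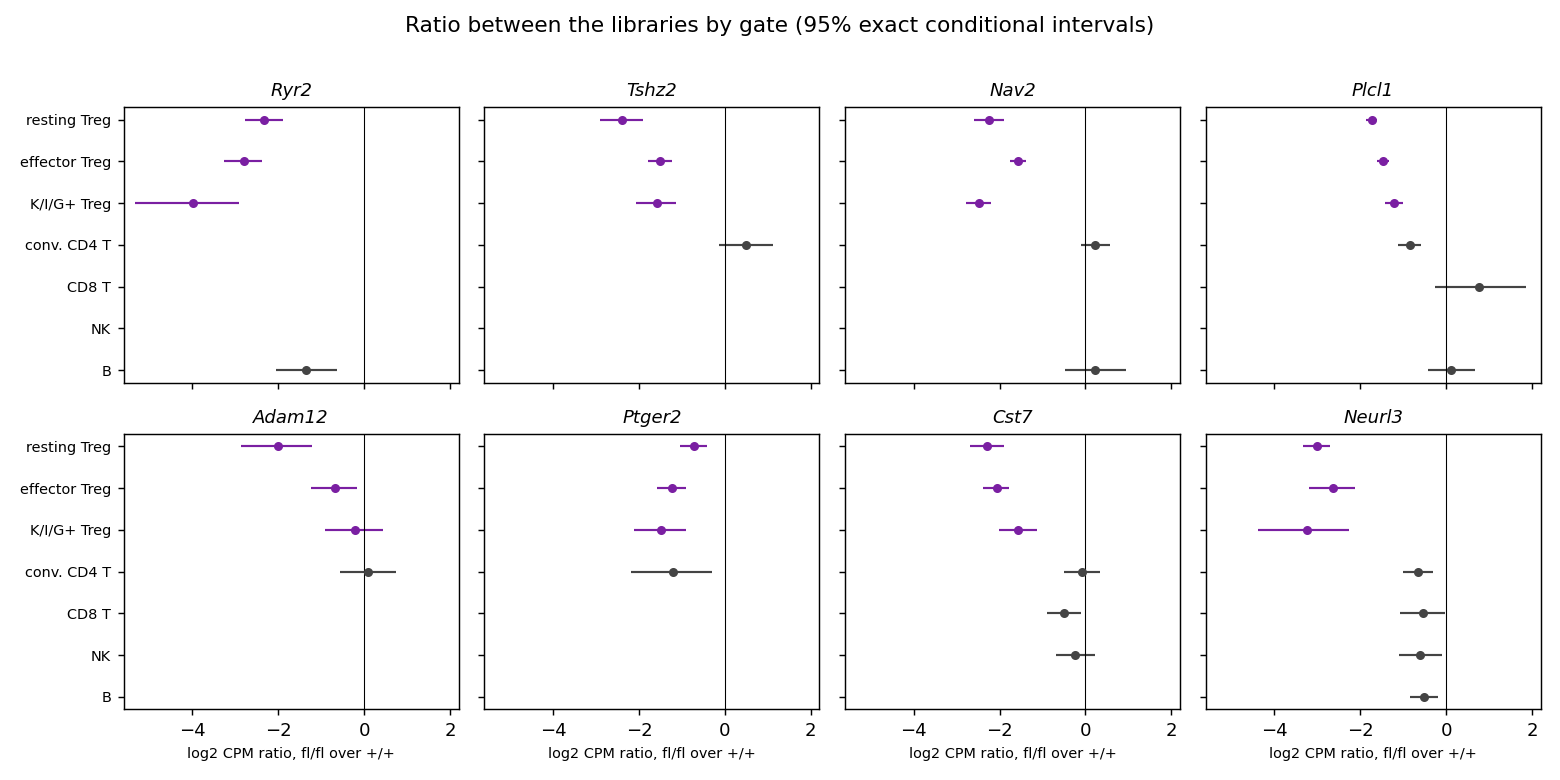
Log2 ratio of CPM, fl/fl over +/+, of each gene in 7 gates, with 95% exact conditional intervals; Treg gates are purple, others grey, and gates with fewer than 20 UMIs in both libraries together are left out. All purple points lie left of 0, and the interval includes 0 for Adam12 in K/I/G+ cells, whereas the grey points of Nav2 lie right of 0.

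Cells with Klrg1, Il10 or Gzmb were not the same mixture in both libraries. Of the 404 +/+ cells 67.6% had Il10, 41.3% Klrg1 and 10.9% Gzmb, and of the 200 fl/fl cells 41.0% had Il10, 29.0% Klrg1 and 41.0% Gzmb. Ryr2 and Nav2 divided these cells in +/+. Ryr2 was at 112.2 CPM in Il10 cells and 11.8 CPM in Klrg1 cells, whereas Nav2 was at 354.0 against 660.8 CPM. In fl/fl Klrg1 cells Ryr2 had 0 UMIs in 58 cells, and Nav2 was at 132.7 CPM. In fl/fl Gzmb cells 7 members were lower than in the fl/fl Il10 cells, with Adam12 at 0 UMIs, while Cst7 was at 43.0 CPM in the former and 42.5 CPM in the latter.

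The effector-marker share gives a finer view of the same cells, in 5 equal steps of marker share. In +/+ cells Nav2 went from 4.11 CPM in the lowest step to 385.4 CPM in the highest, Tshz2 from 4.38 to 156.5, Cst7 from 10.7 to 143.6 and Ptger2 from 6.85 to 75.0 CPM. Ryr2 went from 7.67 to 92.1 CPM and Plcl1 from 107.1 to 401.7 CPM, and both were level between the 4th and 5th step. Neurl3 stayed between 41.6 and 59.4 CPM. The 8 genes are not among the markers that order the cells. In fl/fl cells Ryr2 climbed from 3.04 CPM in the lowest step to 16.6 CPM in the 4th, and was at 3.89 CPM in the 5th, from 6 UMIs. Its log2 ratio went from -1.33 (-2.21 to -0.48) in the lowest to -4.57 (-6.02 to -3.43) in the highest step. Ptger2 also moved further apart along the steps, from -0.24 (-0.99 to 0.54) to -1.36 (-1.84 to -0.91). Nav2 did so too, from -0.43 (-1.45 to 0.62) in the lowest step over -1.62, -1.59 and -1.68 to -1.97 (-2.22 to -1.73) in the highest, which is not the order that its resting and effector ratios give. Tshz2 had no steady order, at -1.08, -2.34, -2.33, -0.89 and -1.51. Neurl3 had ratios of -3.01, -3.04, -2.96, -2.34 and -3.32 from the lowest to the highest step. Cst7 lay between -2.22 and -1.52 and Plcl1 between -1.78 and -1.28. Adam12 had no steady order: it was at -2.49 (-3.75 to -1.44) in the 4th step, and in the 5th step fl/fl was higher, at 29.8 CPM against 20.1 CPM (0.57, 0.02 to 1.10). UMIs of these genes are clumped in few cells, so such an interval is narrower than the spread between cells allows.

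**Figure D3:**
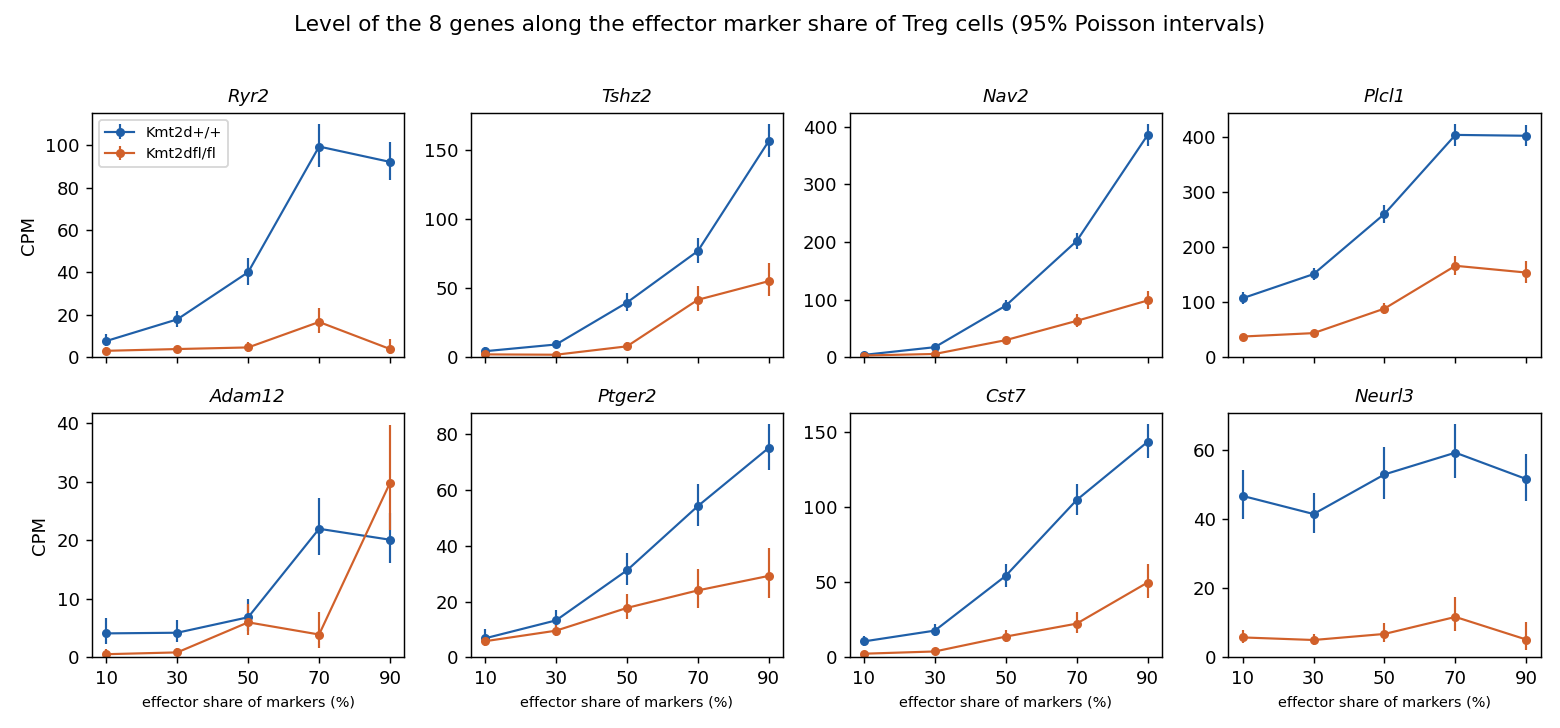
Level of each gene (CPM, linear axes from 0) against the effector share of marker UMIs, in 5 steps plotted at their centres, +/+ in blue and fl/fl in orange, with 95% Poisson intervals. In +/+ cells 7 genes are higher on the right, and Neurl3 is level at 41.6 to 59.4 CPM; Adam12 in the highest step is the only point where orange lies above blue.

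Follicular Treg cells, which enter B cell follicles, are a further effector form. Effector cells were split by their summed UMIs of the follicular markers Cxcr5, Pdcd1, Tox2 and Il1r2. Those with 2 or more were 27.4% of +/+ and 17.0% of fl/fl effector cells. They had more UMIs per cell (medians 6012.5 and 7951) than the rest (4913 and 5892). In +/+ cells Tshz2 was at 173.7 CPM in that subset and 68.2 CPM in the rest, and Nav2 at 340.4 against 141.5 CPM. Neurl3 was at 50.9 against 54.5 CPM and did not differ beyond counting error. The ratios of Nav2 were -0.86 (-1.12 to -0.60) in the subset and -1.91 (-2.21 to -1.62) in the rest. Those of Tshz2 were -0.85 (-1.22 to -0.49) and -1.77 (-2.19 to -1.37), and those of Cst7 -1.32 (-1.79 to -0.87) and -2.39 (-2.82 to -1.99). For these 3 genes the intervals do not overlap, with values closer to 0 in the subset. The fl/fl subset held 91 cells, and with UMIs clumped in few cells these intervals are narrower than the spread between cells allows. Adam12 had 50 +/+ and 1 fl/fl UMI in the subset, and 84 and 38 in the rest.

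Co-detection within a cell was read against the number expected if genes fell independently among cells of like depth. Among 1793 +/+ effector cells (both kinds), 22 of the 28 pairs were found together more often than that, with a median observed-to-expected ratio of 1.12. The highest was 1.53 for Ryr2 with Ptger2, in 101 cells against 66.0 expected. Ryr2 with Tshz2 followed at 1.45 and Nav2 with Adam12 at 1.40. The lowest was 0.328 for Ryr2 with Adam12, found together in 4 cells against 12.2 expected. Adam12 was below 1 with 6 of the 7 others, and Nav2 was the exception. Neurl3 lay between 0.964 and 1.14 with all 7, near independence. With strata of the effector share added, 20 of 28 pairs were above 1 and the median was 1.09. Of these +/+ cells 65.9% held 2 or more of the genes, 1182 cells against 1282.6 expected, which is fewer. In contrast 19.4% held 4 or more, 347 cells against 261.5 expected. Cells with none were also in excess, 205 against 111.0 expected. In 736 fl/fl effector cells 24.6% held 2 or more, 181 cells against 177.7 expected. There 1.63% held 4 or more, 12 cells against 5.92 expected. Of the 14 fl/fl pairs with enough expected cells, 12 were above 1, with a median of 1.37. The cells of 1 library are not replicates, so these ratios carry no test.

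**Figure D4:**
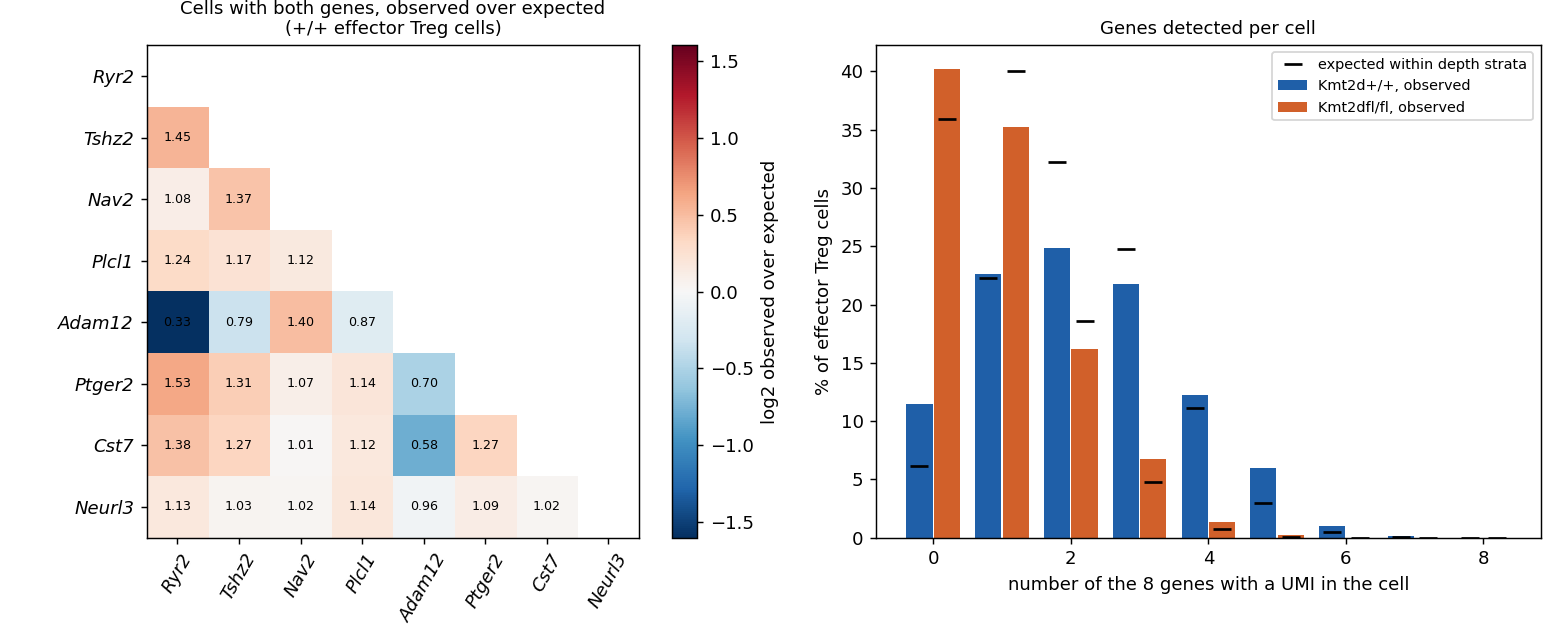
Left, observed over expected number of +/+ effector Treg-like cells with UMIs of both genes, for 28 pairs (colour on a log2 scale, ratio printed). Right, percent of effector cells by the number of the 8 genes detected, with black ticks for the percent expected within depth strata. Ryr2 with Adam12 is the lowest pair at 0.33, and 40.2% of fl/fl cells against 11.4% of +/+ cells held none of the genes.

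Other gates of the same libraries lie outside the contrast that chose the genes. Conventional CD4 T cell-like cells (no Ikzf2 or Foxp3 UMI) numbered 1171 in +/+ and 1241 in fl/fl. Of the 4 members measured there, Neurl3 and Plcl1 were called lower (2 of 4, all genes 2.26%). Neurl3 was at 28.9 against 18.3 CPM (-0.66, -1.01 to -0.32) and Plcl1 at 50.8 against 28.3 CPM (-0.85, -1.12 to -0.58). Nav2 was at 20.96 against 24.7 CPM (0.23, -0.11 to 0.58) and Cst7 at 16.0 against 15.2 CPM (-0.07, -0.49 to 0.34). The intervals of Nav2 and Cst7 there do not reach their Treg values. The members under the floor were Ryr2 (2.03 against 0.474 CPM), Ptger2 (5.47 and 2.37), Adam12 (6.26 and 6.64) and Tshz2 (6.10 against 8.53 CPM). Ikzf4, a Treg-enriched factor not used for the gate, stood at 24.7 against 9.64 CPM in the conventional gate. The part of Treg cells in the Neurl3 and Plcl1 values was not tested. Both calls ended at a ratio of at least 2, and in 1 of 6 draws of the thinning, while the other draws called 2 members.

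The conventional gate also held more activated cells in fl/fl (288 of 1241) than in +/+ (110 of 1171). In naive-like conventional cells 3 of 4 measured members were called lower (all genes 3.28%), with Cst7 at 12.3 against 6.81 CPM (-0.86, -1.50 to -0.24) besides Neurl3 and Plcl1. The Nav2 level was higher there in fl/fl, at 22.6 against 29.1 CPM (0.36, 0.01 to 0.72), but its detection was not. A Nav2 UMI was present in 7.92% of +/+ and 6.82% of fl/fl naive-like cells, and the top fl/fl cell held 8.51% of the UMIs. In activated conventional cells 3 of 6 were called (4.27%), Neurl3, Plcl1 and Ptger2, the last from 9 and 6 UMIs. Cst7 was at 48.3 against 42.6 CPM in activated cells, above its naive-like level in both libraries.

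In CD8 T cell-like cells (221 and 314 cells) 0 of 3 measured members were called lower (all genes 3.74%), or 0 to 2 over the draws of the thinning. Neurl3 was at 41.8 against 28.6 CPM (-0.55, -1.07 to -0.03) and Cst7, known in cytotoxic cells, at 69.8 against 49.4 CPM (-0.50, -0.89 to -0.10). In NK cells (155 and 172) Neurl3 was called, as 1 of 3 (5.04%), at 116.5 against 77.1 CPM (-0.60, -1.10 to -0.10), and Cst7 was at 123.8 against 105.2 CPM (-0.23, -0.68 to 0.22). In B cells (498 and 1239) Ryr2 was called, as 1 of 3 (2.90%), at 11.8 against 4.63 CPM (-1.35, -2.06 to -0.64) from 38 and 34 UMIs, a call that 2 of 6 draws of the thinning did not keep. Neurl3 in B cells was at 40.7 against 28.6 CPM (-0.51, -0.83 to -0.18). The ratio of Neurl3 was thus below 0 in conventional CD4, CD8, NK and B cells, at -0.66 to -0.51, and further below 0 in the Treg states. In the same gates Kmt2d had log2 ratios of -0.36 (-0.55 to -0.17, conventional CD4), -0.23 (-0.60 to 0.14, CD8), -0.49 (-1.09 to 0.11, NK) and -0.52 (-0.78 to -0.27, B). The intervals in CD8 and NK cells include 0, and a link to the Neurl3 values was not tested.

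Plcl1 also had a place outside T cells. Dendritic cells (88 and 75) held it at 158.1 against 77.5 CPM (-1.03, -1.52 to -0.56), with 54.0% of the fl/fl UMIs in 1 cell, and monocytes and macrophages (84 and 70) at 86.9 against 109.2 CPM (0.33, -0.19 to 0.84). Neurl3 in monocytes and macrophages was at 82.2 against 72.8 CPM (-0.18, -0.77 to 0.41). B cells give the background of genes they are not known to express. There Cst7 was at 0.311 against 0.272 CPM, Tshz2 at 0.311 against 0.136 CPM, and Adam12 at 0 UMIs in both libraries. A UMI of Cst7 was seen in 0.201% of +/+ B cells, against 39.2% of +/+ effector Treg-like cells, at median depths of 4855 and 5107 UMIs.

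None of the close measured relatives named in this paragraph was called lower in the Treg gate. More distant ones in the lists below, such as Plcb4 and Plcg1, were. Ryr3 was at 12.7 against 9.23 CPM (-0.47), and Itpr1, Itpr2 and Itpr3 (inositol trisphosphate receptors) had ratios of -0.23, -0.30 and -0.31. Plcl2, the paralogue of Plcl1, was at 164.0 against 179.1 CPM (0.13), and Tshz1 at 63.2 against 57.6 CPM (-0.13). Ptger4, the other cyclic AMP-raising prostaglandin E2 receptor, was at 66.4 against 81.7 CPM (0.30) in the Treg gate and at 82.4 against 126.1 CPM (0.61, 0.44 to 0.79) in effector cells. The other navigators and the other ryanodine receptor were under the floor, Nav1 at 2.33 against 0.940 CPM (-1.31, -2.03 to -0.62), Nav3 with 1 and 4 UMIs and Ryr1 with 19 and 14 UMIs. Adam10, Adam17 and Adam19 had ratios of -0.34, -0.20 and -0.36, Cst3 of -0.37 and Neurl4 of -0.11.

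Wider lists around the members were mixed. For comparison, 9.63% of all measured genes were called lower and 2.42% higher in the Treg gate, and 9.17% and 3.92% in effector cells. Besides Ryr2, 7 of 26 measured genes of calcium release and its targets were called lower and 0 higher in the Treg gate (median -0.28), with Atp2b4, a calcium pump, at -1.50, Orai2, a calcium channel subunit, at -1.39 and Camk2g at -0.90. In effector cells it was 4 of 25 lower and 2 higher, the latter Camk2b (0.60) and the calcineurin gene Ppp3ca (0.69). Of 4 other phospholipase C genes Plcb4 (-1.55) and Plcg1 (-0.65) were lower. Of 15 other genes of prostaglandin E2 and cyclic AMP, Adcy7, an adenylyl cyclase, was lower (-1.46) and the phosphodiesterase gene Pde4b higher (0.96). In effector cells Pde3b (1.66) and Ptger4 were higher as well. Among 11 other cystatins and cathepsins Ctsa (-0.65) and Ctsd (-0.63) were lower in the Treg gate and neither was called in effector cells, where Ctsl was higher (1.28). Of 5 other ADAM proteases and inhibitors Timp2 was lower (-1.76), and of 7 other neuralized and Notch ubiquitin ligases 0 were called. Of 34 effector Treg genes 22 were lower and 3 higher (among them Gzmb 2.02 and Ccr2 0.83) in the Treg gate, with Il1rl1 (-4.84), Ebi3 (-3.78) and Ccr8 (-2.33) lowest. In effector cells alone 12 of 31 were lower and 4 higher, with a median of -0.25 against -0.87 in the Treg gate. That list overlaps the markers used for gating.

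Likeness to the members was measured over 13 gates of the +/+ library, as Pearson's r of log2(CPM + 5). The gates share 1 library, and the values are descriptions. For the mean profile of all 8 the closest genes were Ttn (0.989), Ccr8 (0.964), Penk (0.958), Ptpn5 (0.955) and Itgav (0.954). In the Treg gate these had log2 ratios of -1.07, -2.33, -0.79, -4.31 and -1.42. For single members, the 3 closest were Atp9b, Lclat1 and Ptpn5 for Ryr2, Hif1a, Pdzk1ip1 and Adh4 for Tshz2, Itgb8, Rgs9 and Il1rl1 for Nav2, and Gadd45b, Trib1 and Dst for Plcl1. They were Ankrd6, Ccr4 and Bmp7 for Adam12, Ttn, Rgs16 and Vps54 for Ptger2, Rnaset2a, Cysltr2 and Tbc1d2b for Cst7, and Nr1h2, Pigs and Ndel1 for Neurl3. The Treg ratios of Atp9b, Hif1a, Rnaset2a and Nr1h2 were -0.28, -0.40, -0.21 and -0.18, closer to 0 than those of Ryr2, Tshz2, Cst7 and Neurl3, while Rgs9 and Il1rl1 were at -3.45 and -4.84. Among the members themselves Tshz2 and Ptger2 were most alike (r = 0.940), and Neurl3 had the lowest values with the others (-0.18 to 0.36).

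Because 5 of the 8 genes are among the longest, ratio and span were set side by side. Of genes of 100 kb or more, 14.2% were called lower in effector cells, against 7.52% under 20 kb and 9.09% between, and 6.85%, 4.25% and 2.79% were called higher. In conventional CD4 T cell-like cells the lower shares were 4.40%, 1.80% and 2.05%. The ratios of the 3 short members in effector cells, -2.63, -2.07 and -1.23, covered most of the range of the 5 long ones, -2.81 to -0.69. Whether reads in introns were counted is not given in the sources used here, and a link between span and ratio was not tested.

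**Figure D5:**
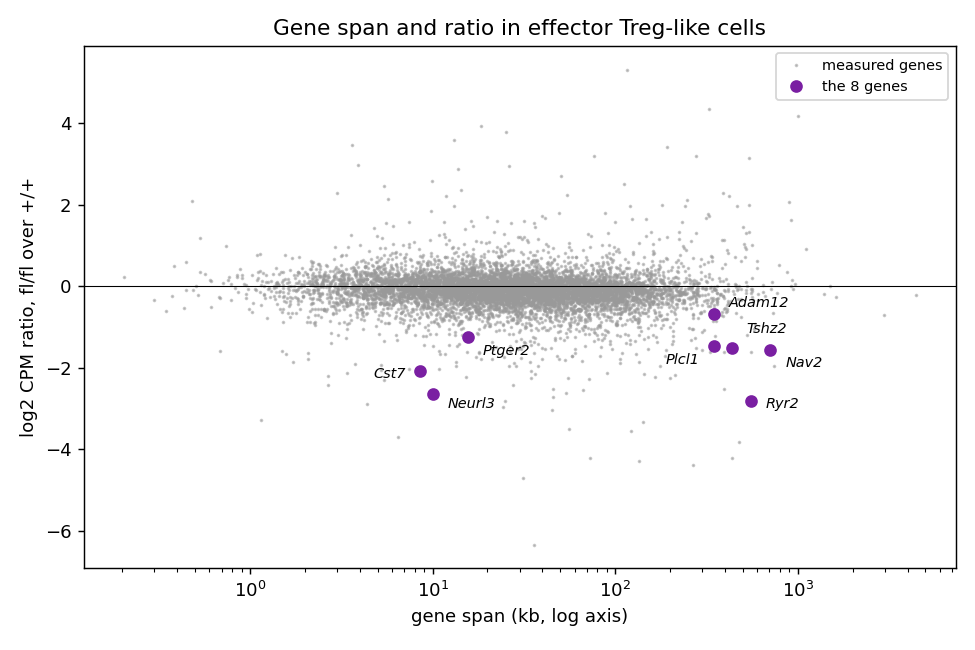
Log2 ratio of CPM in effector Treg-like cells against the span of the gene (kb, log axis), for measured genes (grey) and the 8 genes (purple). The members form a group of 5 at 348.4 to 701.4 kb and a group of 3 at 8.53 to 15.6 kb, both below 0.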

How the data were processed

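Sorted splenic Treg cells were measured by droplet single-cell RNA sequencing in 2 libraries of 3 pooled mice each. Per the submitters' processing notes, fastp, Cell Ranger 7.1.0 and Seurat 4.1.1 were used, with the builds mm10 and GRCm38. Raw UMI counts were deposited by the authors, with 7947 and 8784 barcodes and 53680614 and 63989234 UMIs (medians of 5562 and 6039.5). The cell filters behind them are not given in the sources used here.

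Barcodes under 500 genes or over 10% mitochondrial counts were left out. Doublets were scored with Scrublet in scanpy 1.11.5 at an expected rate of 6%. Its automatic threshold called 0 and 3 barcodes, so Otsu's threshold was used, which removed 113 (1.45%) and 184 (2.13%). Cells were gated by marker UMI counts in place of clustering. Gate thresholds were chosen with the data in view, and each cell type name rests on those markers. Between 40% and 60% effector share, near the cut, lay 573 (16.8%) of the +/+ and 472 (14.4%) of the fl/fl Treg-like cells that were neither cycling nor interferon-responding. No gate took 1531 and 1477 cells.

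Counts were summed per gate and library and scaled by the gate's total UMIs to CPM. Ratios carry 95% exact conditional binomial intervals, levels exact Poisson intervals. Thinning drew 2500 UMIs per cell, in 6 draws of which 1 gives the shares printed, and left out 33 and 13 shallower Treg-like cells. With 1 library per group no p-value was computed. The calling, but not the gating, was tested on simulated summed counts of effector cells. Of 8071 genes, 100 lowered and 100 raised 3-fold were all called, as were 55 of 7871 unchanged ones. These sums were Poisson draws without the clumping of UMIs in few cells, so the false calls of real data can be more. The members and gene lists were chosen with earlier results of these data known. All 8 members were described; of each list all measured genes were counted and up to 3 each way named, besides close relatives, and likeness named the 3 nearest genes per member and 5 for all. Calculations used Python 3.11.15 and scipy 1.17.1. Some genes are not reported here.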

Additional observations from a re-analysis of the deposited data

Results flagged for a closer look

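The log2 ratio of Nav2 in naive-like conventional CD4 T cells was 0.36 (0.01 to 0.72), above 0, whereas it was -2.92 in the whole Treg gate. The share of naive-like cells with a Nav2 UMI was not higher in fl/fl, at 7.92% (+/+) and 6.82% (fl/fl). The difference between the gates was not tested. Adam12 had a log2 ratio of 0.57 in the highest step of effector-marker share and ratios below 0 in the other 4 steps. That difference was not tested either, and the fl/fl value of that step rests on 46 UMIs in 248 cells.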

How the results depend on the processing

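No paired analysis was possible because each genotype has 1 library, so leaving out a replicate was not possible either. Taking the median ratio of all genes as 0 (its shift was -0.13 in the Treg gate) changed no count of members. Of 91 counts of members and splits under the alternatives, 82 kept within 1.5 times of the value reported. In B cells 2 members were called with a mitochondrial limit of 5% and 0 in 2 draws of the thinning, against 1. In CD8 T cells 1 and 2 were called in 2 draws, against 0. In conventional CD4 T cells 0 were called at a ratio of at least 2 and in the draw used for the shares, against 2. Without 4 effector markers the effector share of the Treg gate was 31.2% in +/+ and 10.7% in fl/fl, against 47.6% and 20.2%. Of single ratios whose reported interval excluded 0, 1 reversed, Adam12 in effector cells at 0.87 where a Foxp3 UMI was required. Ratios with an interval including 0 could not count as reversed. Adam12 in cells with Klrg1, Il10 or Gzmb was such a ratio and reached 0.80 under an alternative. Among all Treg ratios under the alternatives 440 of 448 were below 0. These settings re-cut the same cells of the libraries that chose the genes, so nothing is read from that count. The causes of the changes between settings were not tested. The ratios without the 4 markers, the cut at 70%, equal weights of steps, cells counted once, strata of effector share and 5 of the 6 draws were added after seeing the data. Depth limits the fl/fl effector values of Neurl3 and Adam12, which rest on 32 and 39 UMIs.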

Other observations

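Adam12 reached its highest level of any gate in the few T cells with Zbtb16, the factor of innate-like T cells. It stood at 97.0 against 39.9 CPM, in 33 (+/+) and 43 (fl/fl) cells, from 20 and 10 UMIs in 6 and 5 cells (log2 ratio -1.28, -2.54 to -0.12). Neurl3 in the same cells was at 72.7 against 16.0 CPM, from 15 and 4 UMIs.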
